A study of Mus musculus with 3 samples.

Results

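The genes described are the activating and inhibitory receptors of the TREM, CD300, paired immunoglobulin-like and related families on myeloid cells, with the adaptor that several of them signal through. They are 10 genes, Trem1, Trem2, Tyrobp, Pirb, Lilrb4a, Sirpa, Cd300a, Cd300lf, Siglec1 and Cd200r1, chosen by name from the 55536 annotated genes of the tables and matched through the symbols that the transcript tables carry; all 10 matched. Ribosomal-RNA-depleted total RNA from the cytosolic fraction of macrophages grown from C57BL/6J mouse bone marrow was measured in 3 libraries. The cells had received 100 ng/ml Lipid A, the part of lipopolysaccharide that Tlr4 senses, for 12 hours, then no Lipid A for 12 hours, and then the same dose again for 40 minutes. Every library came from this 1 treatment, and the labels call them biological replicates 1, 2 and 3, each made from 1 µg of RNA. Untreated cells, cells stimulated once and the nuclear fraction were not analysed here, so all values are levels and none is a response. The sex and age of the animals were not collected per the labels, and nothing says that the cultures came from different animals, so the spread between libraries may be partly technical.

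Paired receptors are families in which close relatives send opposite signals. Activating members such as Trem1 and Trem2 have short tails and a charged residue in the membrane that binds the adaptor Tyrobp (DAP12), whose ITAM, a pair of spaced tyrosines, recruits the kinase Syk when phosphorylated. Inhibitory members such as Pirb, Lilrb4a, Sirpa, Cd300a and Cd300lf carry ITIMs, short motifs around 1 tyrosine in the tail, which recruit the phosphatases Ptpn6 (SHP-1) and Ptpn11 (SHP-2). In macrophages these receptors set the threshold of the response to microbial products, dying cells and healthy self. Siglec1 (CD169) binds sialic acid and has no known ITIM, and Cd200r1 restrains myeloid cells through tyrosines that bind Dok adaptors.

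The coding sequences carry this division, and the motifs are shown because they define the roles by which the genes are described below. Sequences are from the transcripts of annotation M21 on the mm10 build, 5′ to 3′ on the coding strand, with the tyrosine codons in capitals. The tail was taken as the bases after the most hydrophobic stretch of 19 encoded residues, leaving out the first 30. An ITIM was counted where the second residue before a tyrosine was isoleucine, leucine, valine or serine and the third residue after it was isoleucine, leucine or valine. The search used 1 complete coding transcript of each gene, not always the most abundant. For Lilrb4a this was Lilrb4a-201, at 0 TPM in every library in the alignment-based transcript table. For Tyrobp it was Tyrobp-201, with 0%, 4.02% and 5.83% of the gene's TPM there in replicates 1, 2 and 3. The search found 1 ITAM in Tyrobp, 3 ITIMs each in Pirb and Sirpa, 2 each in Lilrb4a, Cd300a and Cd300lf, and no match to either in Trem1, Trem2, Siglec1 or Cd200r1. The Tyrobp motif and the first Pirb motif are each split by an intron, so their coordinates are wider than the sequence.
Tyrobp ITAM, chr7:30415670-30417382, plus strand: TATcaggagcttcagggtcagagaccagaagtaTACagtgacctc
Pirb ITIM 1, chr7:3713862-3714103, minus strand: agcctaTATgcttcagtg
Pirb ITIM 2, chr7:3712786-3712803, minus strand: gtgaccTATgcccagctg
Pirb ITIM 3, chr7:3712696-3712713, minus strand: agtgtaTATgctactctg
Lilrb4a ITIM 1, chr10:51496021-51496038, plus strand: attgtcTACgcccaggta
Lilrb4a ITIM 2, chr10:51496194-51496211, plus strand: gtaaccTATgcccagttg
Sirpa ITIM 1, chr2:129629954-129629971, plus strand: atcacaTACgcagacctg
Sirpa ITIM 2, chr2:129630077-129630094, plus strand: ctcaccTATgctgacctg
Sirpa ITIM 3, chr2:129630149-129630166, plus strand: tcagagTATgctagtgtc
Cd300a ITIM 1, chr11:114899846-114899863, plus strand: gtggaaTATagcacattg
Cd300a ITIM 2, chr11:114901147-114901164, plus strand: cttcacTATtcatccgtg
Cd300lf ITIM 1, chr11:115117648-115117665, minus strand: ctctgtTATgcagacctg
Cd300lf ITIM 2, chr11:115117112-115117129, minus strand: gtttcaTATgccgctctg
These matches describe the encoded sequence and are not measurements of signalling.

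Expected counts on annotated genes totalled 38197192, 46327891 and 38685666 in replicates 1, 2 and 3. Short 7SL RNA took 54.4% to 63.0% of TPM, a measure of transcript abundance that divides by effective length and sums to a fixed total, and nuclear protein-coding genes only 27.7% to 33.3%, so every TPM below is a share of a total that is mostly 7SL RNA. Replicate 2 stood apart: the nuclear RNAs Malat1 and Neat1 were at 485 and 16.1 TPM there, against 1445 and 87.7 TPM in replicate 1 and 1726 and 88.3 TPM in replicate 3. All 8 macrophage markers were detected, led by Lyz2, Cd68, Adgre1 and Fcgr1 (3020, 618, 605 and 244 TPM), with summed levels between 4071 and 5638 TPM. Of 8 neutrophil markers only S100a8 and S100a9 were detected (3.22 and 4.55 TPM), while Camp, Cxcr2, Elane and Ltf were below 1 TPM and Ly6g had 0 counts, with a summed level of 7.02 to 9.87 TPM. Of the B cell, T and NK cell, dendritic cell, mast cell and eosinophil lists of 5 genes each, only Cd79b was detected, at 1.53 TPM. The osteoclast list had 1 detected gene of 5, Acp5 at 11.1 TPM, while Calcr, Ctsk, Dcstamp and Ocstamp were below 1 TPM.

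Detection required at least 1 TPM in each library. By that rule 9 of the 10 genes were detected and Trem1 was not, against 17.4% of all annotated genes and 41.4% of nuclear protein-coding genes. Their median level was 6.15 on the log2(TPM + 1) scale, beside a median of 0.23 over the 22015 nuclear protein-coding genes and 3.25 over the 9106 of those that were detected. Together the 10 genes held 0.612% to 0.629% of protein-coding TPM. In these bulk libraries a level cannot tell fewer expressing cells from less RNA per cell.

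**Figure D1:**
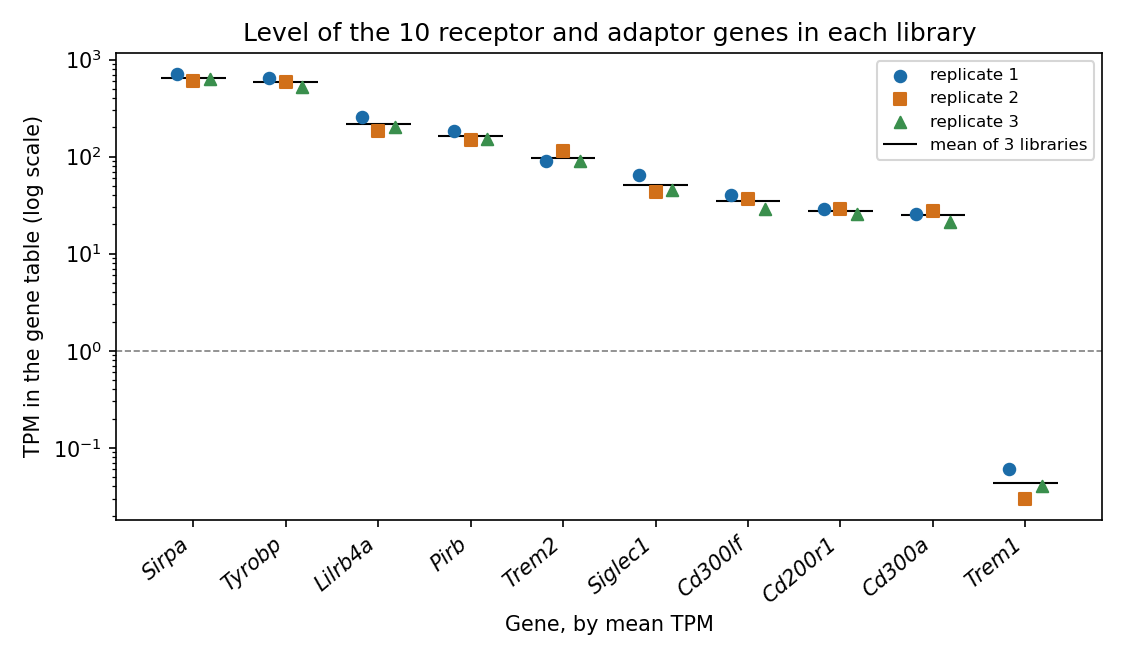
TPM of the 10 genes in each library on a log axis, ordered by mean; points are libraries, black bars the mean of 3 libraries, and the dashed line marks 1 TPM. Sirpa and Tyrobp lie between 524 and 707 TPM, and Trem1 lies between 0.03 and 0.06 TPM, apart from the other genes.

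Tyrobp (ENSMUSG00000030579.10, chr7:30413760-30417585, plus strand), the ITAM adaptor, had 641, 585 and 524 TPM in replicates 1, 2 and 3, or 583 ± 58.5 (SD, n = 3). It ranked 50 among 22015 nuclear protein-coding genes. The genes whose log2(TPM + 1) lay nearest to it over the 3 libraries, by Euclidean distance among 22014 others, were Lamp1, Atp6v0c and Vim, at distances of 0.06, 0.09 and 0.09. Fcer1g, the other ITAM adaptor of myeloid receptors, stood higher, at 1286 ± 63.9 TPM. Hcst (DAP10), the adaptor that recruits phosphoinositide 3-kinase and neighbours Tyrobp on chromosome 7, was at 6.89 ± 0.493 TPM.

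The ratio of the adaptors was steady over the libraries. Tyrobp was below Fcer1g by 1.14 ± 0.12 on the log2(TPM + 1) scale and above Hcst by 6.21 ± 0.18, each with the same sign in 3 of 3 libraries. With 3 libraries an exact two-sided sign-flip permutation test of a ratio cannot give a p below 0.25, and it gave 0.25 for each of the 10 gene pairs examined, so no ratio can pass a threshold. Of the 12 genes of the adaptor and kinase list 11 were detected, led by Fcer1g, Tyrobp and the kinase genes Lyn (95.2 ± 22.0 TPM) and Syk (94.8 ± 19.4 TPM). Fgr, a Src family kinase, was below 1 TPM in every library.

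Trem2 and Trem1 lie 114 kb apart on chromosome 17 on the same strand and differed widely in level. Trem2 (ENSMUSG00000023992.14, chr17:48346401-48354147), a receptor for lipids and lipoproteins, had 89.1, 116 and 89.2 TPM, or 98.0 ± 15.3 (SD, n = 3), and ranked 480. Replicate 2 was high and the other libraries were nearly equal in TPM. Rescaled over nuclear protein-coding genes, Trem2 was at 267, 412 and 322 TPM in replicates 1, 2 and 3, so that near equality did not hold. Trem1 (ENSMUSG00000042265.13, chr17:48232768-48246924), which amplifies inflammatory signals in myeloid cells, had 0.06, 0.03 and 0.04 TPM from 9, 7 and 8 expected counts. The deposited confidence bounds of its TPM ran from 0.0172 to 0.123 over the libraries, all under the detection limit of 1 TPM.

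Trem2 was 1486 to 3854 times as high as Trem1 on the TPM scale, and 6.56 ± 0.23 higher on the log2(TPM + 1) scale, which understates the ratio because Trem1 is near 0. The few counts of Trem1 make this ratio imprecise. Tyrobp exceeded Trem2 by 2.57 ± 0.25 on the same log2 scale, or 5.06 to 7.19 times in TPM. The genes nearest to Trem2 over the 3 libraries were Myl12b, Anxa2 and Rpl27a, at distances of 0.21, 0.24 and 0.25.

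Of the 7 genes named in the TREM list 6 matched the annotation and 2 were detected, Trem2 and Treml2, the latter at 14.2 ± 2.79 TPM. Trem3, Treml1 and Treml4, which lie in the same cluster on chromosome 17, were at 0.1, 0.0933 and 0.350 TPM.

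Trem2 reads were divided between a pair of coding transcripts that encode different ends of the protein. Trem2-201 took 78.9%, 76.1% and 81.2% of the gene's TPM in the alignment-based transcript table and Trem2-202 took 19.7%, 22.8% and 17.0%. The read-based table, made without an alignment file, gave 76.4% ± 2.27 and 20.5% ± 3.39 (SD, n = 3). Trem2-202 holds 55 coding bases at chr17:48351691-48351745, directly before an exon that both share, which Trem2-201 lacks, and 55 is not a multiple of 3, so the reading frame after it differs. Trem2-201 in turn starts 87 bases further upstream. The junction is shown with 12 bases of shared sequence on each side, and the capitals mark the bases found only in Trem2-202.
Trem2-201, chr17:48351180-48351757 with the intron removed: cagcacctccaggaatcaagagac
Trem2-202, the same interval: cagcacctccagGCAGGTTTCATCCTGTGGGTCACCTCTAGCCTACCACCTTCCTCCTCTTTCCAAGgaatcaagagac
Translated from the annotation, Trem2-201 encodes 227 residues and has a stretch of 19 residues with a mean Kyte-Doolittle hydropathy of 2.57, at residues 172 to 190, with 1 basic residue in it. Trem2-202 encodes 249 residues, and its highest such mean after the first 30 residues is 0.74. In replicate 2 both transcripts were at their highest, at 88.0 TPM for Trem2-201 and 26.4 TPM for Trem2-202, against 70.3 and 17.5 TPM in replicate 1 and 72.4 and 15.2 TPM in replicate 3.

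Sirpa (ENSMUSG00000037902.18, chr2:129592835-129632228, plus strand), the inhibitory receptor for the self signal Cd47, was the highest of the 10 genes. It had 707, 595 and 624 TPM, or 642 ± 58.0 (SD, n = 3), and ranked 40 among nuclear protein-coding genes. Its level was not resolved from that of Tyrobp: Sirpa was higher in 3 of 3 libraries, but by only 0.14 ± 0.11 on the log2(TPM + 1) scale. The nearest genes over the 3 libraries were Lgals3bp, Ifit3 and Pfn1, at distances of 0.14, 0.15 and 0.20.

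The activating relatives Sirpb1a, Sirpb1b and Sirpb1c, on chromosome 3, averaged 0.737, 1.54 and 1.8 TPM, and none reached 1 TPM in every library. The ligand gene Cd47 was at 159 ± 34.7 TPM, 5.51 ± 0.14 above Cd200, the ligand of Cd200r1, on the log2(TPM + 1) scale. Cd200 itself was at 2.58 ± 1.15 TPM. Sirpa exceeded Cd200r1 by 4.48 ± 0.14, so receptor and ligand of the former axis both stood above those of the latter.

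Sirpa transcripts were spread over several coding isoforms. Sirpa-214 held 43.3% ± 1.97 of the gene's TPM in the alignment-based table and 52.6% ± 0.127 in the read-based table, followed by Sirpa-204 at 23.2% ± 3.95 and 10.1% ± 2.04. A transcript annotated as retained intron held 4.26%, 1.00% and 3.88% in the alignment-based table, lowest in replicate 2.

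Pirb (ENSMUSG00000058818.13, chr7:3711409-3720391, minus strand), the inhibitory paired receptor that binds MHC class I, had 185, 149 and 151 TPM, or 162 ± 19.9 (SD, n = 3), and ranked 253. Lilrb4a (ENSMUSG00000112148.1, chr10:51490956-51496611, plus strand), the mouse inhibitory receptor gp49B, had 258, 184 and 203 TPM, or 215 ± 38.0, and ranked 165. Both were highest in replicate 1. Pirb was below Lilrb4a by 0.40 ± 0.09 on the log2(TPM + 1) scale, in 3 of 3 libraries.

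Pirb and Lilrb4a are also the members that share the most sequence with other genes. Of the distinct 50-base words in Pirb transcripts 34.0% occur in other annotated genes, with 7 genes sharing at least 10% each, among them the predicted gene Gm14548 (17.7%), the activating partner Pira2 (16.8%) and Lilra6 (15.0%). For Lilrb4a the share is 46.7%, with Gm49339 holding 33.7% and the neighbour Lilr4b 26.1%. Trem1, Trem2, Tyrobp and Sirpa share no such word with another gene, and the share is 1.16% to 3.18% for Cd200r1, Siglec1, Cd300lf and Cd300a.

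Gm49339 (chr10:51480612-51496613, plus strand) is annotated across both Lilr4b and Lilrb4a, and was at 178, 156 and 138 TPM. Lilr4b had 345, 269 and 242 TPM. Lilrb4a and Gm49339, which overlap on the same strand, summed to 372 ± 54.6 TPM. How reads that fit more than 1 of these genes were divided was not tested, and the Lilrb4a level is uncertain in that respect. The antisense gene Gm40645, which overlaps Lilrb4a on the minus strand, was at 0.267 ± 0.142 TPM, and the use of strand in counting is not stated in the labels or headers. The first 90 coding bases of Lilrb4a and Lilr4b are shown as an example of this likeness; they differ at 2 bases, in capitals, and are 97.8% identical.
Lilrb4a, chr10:51491018-51491453 with the intron removed: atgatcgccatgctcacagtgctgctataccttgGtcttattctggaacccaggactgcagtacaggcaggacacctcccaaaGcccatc
Lilr4b, chr10:51480720-51481159 with the intron removed: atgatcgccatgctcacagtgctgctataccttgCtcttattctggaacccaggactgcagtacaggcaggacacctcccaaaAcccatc
The longest identical run in the coding sequences of the pair is 126 bases.

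Most of the signal of Lilrb4a and of Pirb fell on transcripts not annotated as protein-coding. For Lilrb4a, 9 retained-intron transcripts held 68.8%, 36.0% and 68.9% of TPM in replicates 1, 2 and 3 of the alignment-based table, or 177, 66.4 and 140 TPM. Lilrb4a-205, annotated as a target of nonsense-mediated decay with 117 coding bases, held 30.8%, 55.7% and 24.5%, or 79.3, 102.5 and 49.9 TPM. The 4 protein-coding transcripts held 0.377%, 8.28% and 6.57%. In the read-based table the protein-coding share was 0.612%, 1.91% and 0.696%, the retained-intron share 78.7%, 52.7% and 84.5%, and the decay share 20.7%, 45.4% and 14.8%. In both tables replicate 2 was low in the retained-intron class and high in the decay class. Gm49339, which overlaps Lilrb4a on the same strand, was 98.6%, 98.3% and 98.7% protein-coding in the alignment-based table. That was 175, 153 and 136 TPM in replicates 1, 2 and 3. How coding reads were divided between these genes was not tested, so the Lilrb4a class shares are uncertain in that respect.

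For Pirb, 4 retained-intron transcripts held 84.0%, 74.9% and 80.0% of TPM, and the single protein-coding transcript, Pirb-201, held 15.97%, 25.1% and 20.0%. Pirb-202, a retained-intron model, was the largest at 52.5% ± 2.88. In the read-based table the retained-intron share of Pirb was 95.6% ± 0.948 and the protein-coding share 4.45% ± 0.948. The protein-coding share was 20.3% ± 4.56 in the alignment-based table, so the tables differed widely. The annotated class is a label of the transcript model, and these shares do not show that introns were sequenced along their whole length.

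**Figure D2:**
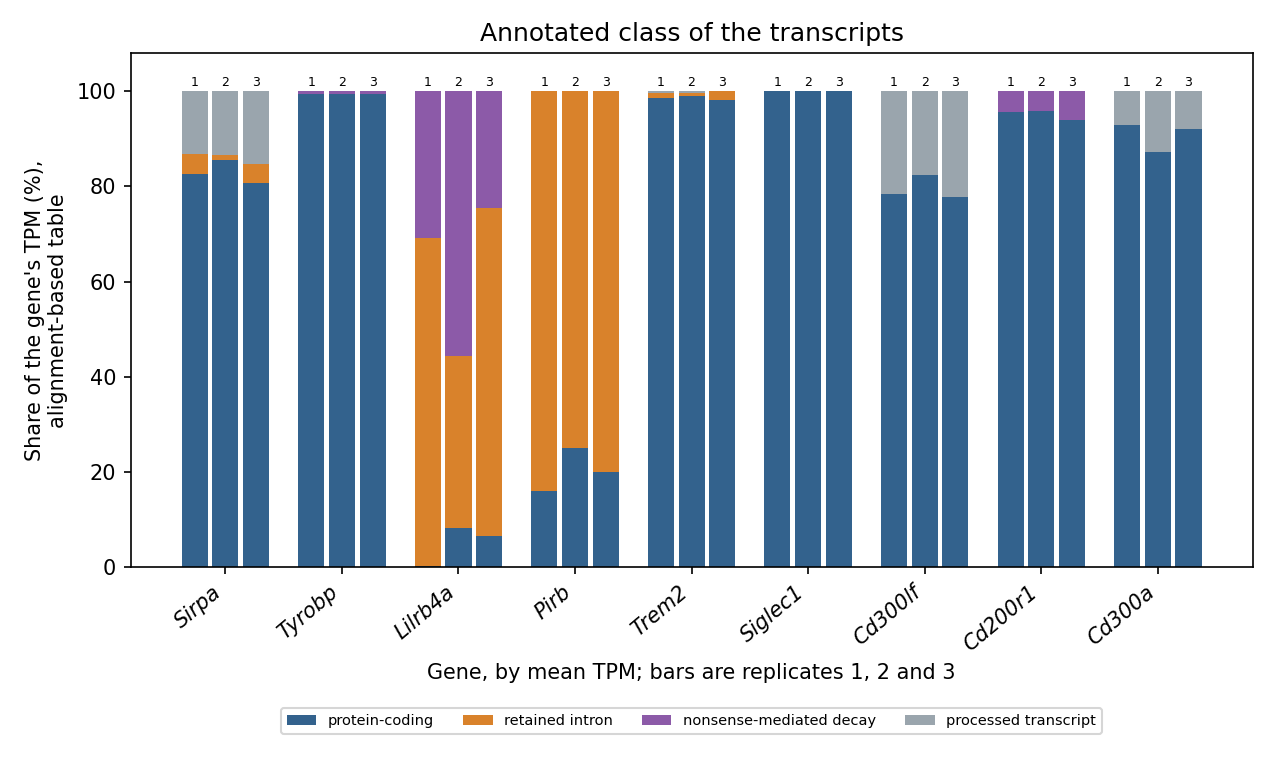
Share of each detected gene's TPM by annotated transcript class in the alignment-based table, as stacked bars for replicates 1, 2 and 3 in that order. Lilrb4a and Pirb are mostly retained-intron or nonsense-mediated-decay models, while Tyrobp, Trem2, Siglec1 and Cd200r1 are over 90% protein-coding.

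The retained-intron class was lowest in replicate 2 for each of the 4 members that have such a transcript in the alignment-based table, namely Lilrb4a, Pirb, Sirpa and Trem2. In the read-based table this held for 3 of them, and Pirb was highest there, at 96.6%. Across all 5758 genes with such a transcript the median share was 4.44%, 1.58% and 5.63% in replicates 1, 2 and 3, and replicate 2 was lowest for 78.1% of the 5578 genes with an order, so the members' pattern is near the background. Malat1 and Neat1, which stay in the nucleus, were lowest in the same library. The part that nuclear RNA plays in these shares was not tested. Without replicate 2 the mean retained-intron share was 68.9% for Lilrb4a, 82.0% for Pirb, 4.07% for Sirpa and 1.47% for Trem2.

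Of the 6 matched genes among the 12 named in the PIR, LILR and LAIR list 5 were detected. Pira2, an activating partner of Pirb, was at 53.5 ± 9.60 TPM, with the same doubt about shared reads. Lair1, an inhibitory collagen receptor, was at 47.6 ± 7.12 TPM and Lilra6 at 1.95 ± 0.545 TPM. Lilra5 was at 0.0200 TPM.

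The CD300 receptors, which bind lipids exposed on dying cells among other ligands, are encoded on chromosome 11, where all listed genes but Cd300lg lie close together. Cd300lf (ENSMUSG00000047798.15, chr11:115116214-115133992, minus strand) had 40.2, 36.9 and 28.7 TPM, or 35.2 ± 5.93 (SD, n = 3). Cd300a (ENSMUSG00000034652.12, chr11:114890041-114904654, plus strand) had 25.6, 27.6 and 21.3 TPM, or 24.8 ± 3.19. In TPM both inhibitory receptors were lowest in replicate 3. Rescaled over nuclear protein-coding genes, this held for Cd300lf only. Cd300a was then at 76.7, 98.2 and 77.1 TPM in replicates 1, 2 and 3. Cd300a was below Cd300lf by 0.48 ± 0.13 on the log2(TPM + 1) scale in 3 of 3 libraries.

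They were not the highest of their family. Of 12 CD300 genes 9 were detected, and Cd300ld3 at 131 ± 11.9 TPM and Cd300c2 at 73.0 ± 11.1 TPM stood above both. Below Cd300a came Cd300ld5 (22.9 TPM), Cd300ld4 (21.3 TPM), Cd300ld (16.8 TPM), Cd300lb, which signals through Tyrobp (10.3 TPM), and Cd300e (5.11 TPM). Cd300ld2 passed 1 TPM only in part of the libraries, and Cd300c and Cd300lg were below 1 TPM in each. Cd300lf lies within the span of Rab37 on the opposite strand, which was at 0.270 TPM in every library.

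Cd300lf was divided among 3 coding transcripts, Cd300lf-203, Cd300lf-202 and Cd300lf-201, at 42.7% ± 2.66, 19.5% ± 1.74 and 17.2% ± 3.56 in the alignment-based table. Cd300lf-206, annotated as a processed transcript of 3929 bases, held 8.09%, 2.38% and 10.7%, again lowest in replicate 2. Cd300a-202 held 82.9% ± 2.84 of Cd300a, and the short processed transcript Cd300a-203 held 9.31% ± 3.07, or 20.6% ± 7.15 in the read-based table.

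Siglec1 (ENSMUSG00000027322.11, chr2:131069220-131086765, minus strand), the sialic acid receptor of tissue macrophages, had 64.8, 43.6 and 45.5 TPM, or 51.3 ± 11.7 (SD, n = 3), and ranked 933. Replicate 1 was high and the other libraries were close. It had the widest spread of the detected members on the log2(TPM + 1) scale, an SD of 0.31, at the 89.8 percentile of detected protein-coding genes. After the rescaling described for Trem2, Siglec1 stood at 172 ± 20.4 TPM and Trem2 at 334 ± 73.0 TPM, a wider spread for its level. Siglec1-201 held 96.4% ± 1.42 of its TPM. Of 9 Siglec genes 4 were detected, and after Siglec1 came Siglece (13.4 ± 3.55 TPM), Cd22 (7.51 ± 2.41 TPM) and Cd33 (6.37 ± 0.991 TPM). Siglec15 had 0 counts in every library, and Mag passed 1 TPM only in part of them.

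Cd200r1 (ENSMUSG00000022667.18, chr16:44765736-44794978, plus strand), the inhibitory receptor for Cd200, had 28.9, 28.8 and 25.4 TPM, or 27.7 ± 1.98 (SD, n = 3), and ranked 1703. It had the narrowest spread of the detected members on the log2(TPM + 1) scale, an SD of 0.10, at the 25.97 percentile of detected protein-coding genes. That place depended on the scale. After the rescaling described for Trem2, Cd200r1 stood at 93.8 ± 8.18 TPM and Pirb at 545 ± 10.9 TPM, a narrower spread for its level. Cd200r1-201 held 95.1% ± 1.10 of its TPM. Its activating relative Cd200r4 was at 32.0 ± 5.53 TPM, while Cd200r2 and Cd200r3 were at 0.110 and 0.123 TPM. In the PILR list, which pairs the inhibitory Pilra with activating genes, all 3 genes were detected, Pilra at 8.96 ± 3.29 TPM, Pilrb1 at 7.01 ± 2.78 TPM and Pilrb2 at 6.38 ± 1.78 TPM.

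**Figure D3:**
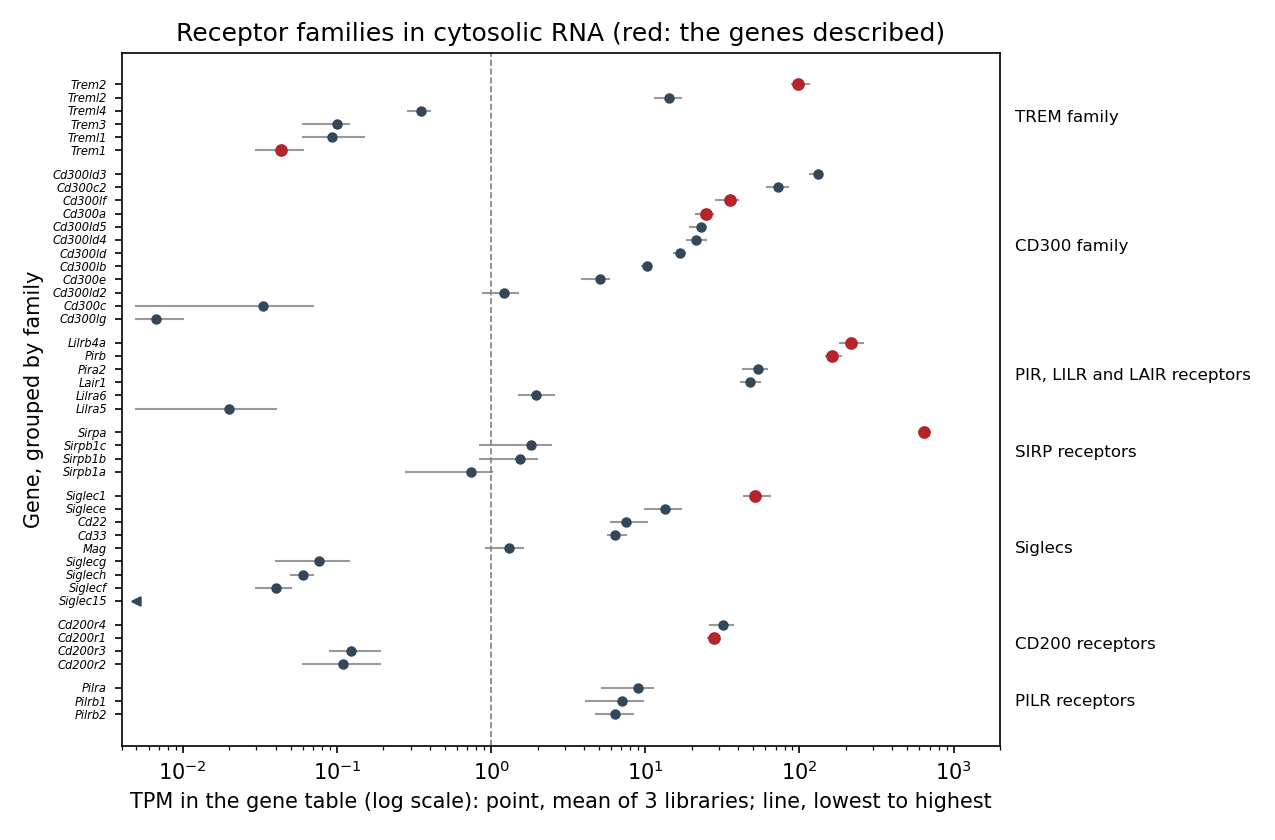
TPM on a log axis of the 44 matched genes of 7 receptor families; points are means of 3 libraries, grey lines run from the lowest to the highest library, red marks the receptors described, and values under 0.005 are drawn at that limit. Sirpa, Lilrb4a and Pirb are the highest of the 44 genes, and Trem1 lies with the genes below 1 TPM. Lilr4b, at 285 TPM, is not among the 44.

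Over the 7 families 44 of 52 named genes matched the annotation, 26 were detected, 13 were below 1 TPM in every library and 5 passed in part of the libraries. Among the 44 genes, Sirpa, Lilrb4a and Pirb ranked 1, 2 and 3, Trem2 ranked 5, Siglec1 8, Cd300lf 10, Cd200r1 12, Cd300a 13 and Trem1 39. Of the 44, the receptors above Cd300a that are not among the 10 genes were Cd300ld3, Cd300c2, Pira2, Lair1 and Cd200r4. Lilr4b carries no listed symbol and is not among the 44. At 285 ± 53.6 TPM it was above Lilrb4a and Pirb in every library.

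The order of the 10 members was partly resolved. A neighbour was called resolved where the difference on the log2(TPM + 1) scale had 1 sign in all 3 libraries and a mean over 2 SD. This held for 6 of 9 neighbouring pairs, 1 of them Cd300a over the undetected Trem1 (4.62 ± 0.19). Others were Tyrobp over Lilrb4a (1.44 ± 0.19) and Pirb over Trem2 (0.72 ± 0.34). It did not hold for Sirpa and Tyrobp, for Trem2 and Siglec1 (0.93 ± 0.47), or for Cd200r1 and Cd300a (0.16 ± 0.09). Single libraries decided some calls. Without replicate 1 Trem2 and Siglec1 were resolved (1.17 ± 0.31) and Siglec1 and Cd300lf were not (0.44 ± 0.29). Without replicate 2 Sirpa and Tyrobp (0.20 ± 0.08) and Cd200r1 and Cd300a (0.21 ± 0.05) were resolved, and Cd300lf and Cd200r1 were not (0.31 ± 0.21). Without replicate 3 Pirb and Trem2 (0.71 ± 0.48) and Siglec1 and Cd300lf (0.46 ± 0.31) were not resolved.

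Most of the effector and ligand genes were detected. Of 10 effector genes 9 were detected, led by Ptpn6 at 112 ± 7.89 TPM, the kinase gene Csk at 68.0 ± 8.45 TPM, the lipid phosphatase gene Inpp5d (SHIP-1) at 49.7 ± 5.10 TPM and the adaptor gene Dok1 at 26.9 ± 3.69 TPM. Ptpn6 exceeded Ptpn11, at 10.1 ± 1.38 TPM, by 3.36 ± 0.11 on the log2(TPM + 1) scale. Of 14 ligand genes 10 were detected. The highest were the MHC class I genes B2m, H2-K1 and H2-D1 (3464, 2217 and 1631 TPM), whose products bind Pirb, and Apoe, a lipoprotein ligand of Trem2 (1167 ± 245 TPM). Clu, Pglyrp1, Sftpd and Spn were below 1 TPM in every library.

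The libraries were compared member by member through the deviation, the log2(TPM + 1) of a library minus the mean of the other libraries, less the median of that difference over the 9106 detected nuclear protein-coding genes. Trem2 deviated most among the detected members, by -0.39, 0.49 and -0.11 in replicates 1, 2 and 3, where the 5th to 95th percentiles of those genes were -0.27 to 0.34 in replicate 1 and -0.37 to 0.30 in replicate 2. Rescaled over nuclear protein-coding genes only, its TPM was 267, 412 and 322. Cd300a was also above that range in replicate 2, at 0.35, and Cd300lf was just below the range of replicate 3, at -0.34. With TMM-normalized counts these were 0.44 for Trem2 and 0.28 for Cd300a in replicate 2, and -0.20 for Cd300lf in replicate 3, over 1.5 times smaller in the last case. Sirpa, with -0.04 to 0.02, deviated least.

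Siglec1 was high in replicate 1 by 0.33, inside the range of that library. Lilrb4a deviated by 0.21, -0.20 and -0.02 on this scale, and by -0.43 in replicate 2 with TMM-normalized counts, a value over 1.5 times as large. Malat1 and Neat1 deviated by -1.58 and -2.27 in replicate 2, opposite in sign to Trem2 and Cd300a; their part in the members' deviations was not tested. Without replicate 2 the mean level was 89.1 TPM for Trem2, 23.4 TPM for Cd300a and 231 TPM for Lilrb4a. The median SD over libraries was 0.18 for the 9 detected members and 0.16 for all detected protein-coding genes.

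**Figure D4:**
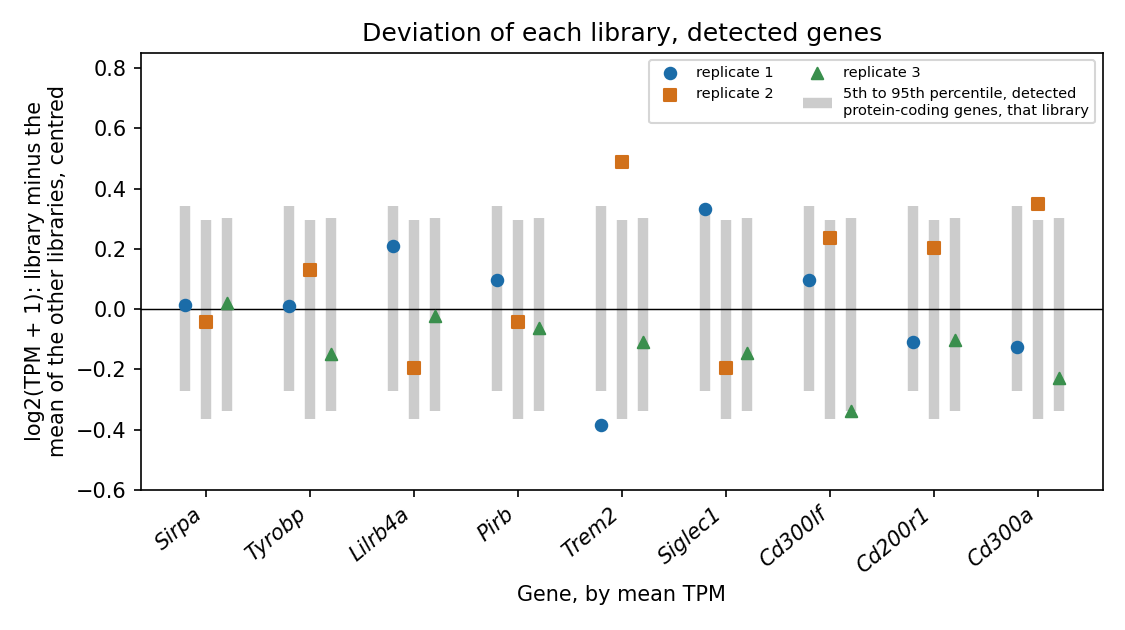
Deviation of each library from the other libraries for the 9 detected genes, on the log2(TPM + 1) scale and centred on detected protein-coding genes; grey bars span the 5th to 95th percentile of those genes in the same library. Trem2 in replicates 1 and 2 and Cd300a in replicate 2 lie outside the bars, at -0.39, 0.49 and 0.35, and Cd300lf in replicate 3 lies just below its bar, at -0.34.

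The quantifiers gave like levels for the members. With each table rescaled over nuclear protein-coding genes, the read-based level differed from the gene table by -0.10 (Tyrobp) to 0.15 (Cd300a) on the log2 scale, where the 5th to 95th percentiles of detected protein-coding genes were -0.15 and 0.39. For Lilrb4a the difference was -0.07 ± 0.14 and for Pirb 0.07 ± 0.03, so the gene totals were closer between tables than the shares of their transcript classes.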

How the data were processed

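Total RNA of the cytosolic fraction was sequenced after ribosomal RNA depletion in 3 libraries of 1 group. The deposited gene tables hold expected counts (fractional estimates), TPM, FPKM and confidence bounds of TPM, per the file headers. The deposited transcript tables hold expected or estimated counts and TPM, from transcriptome alignments (alignment-based) or directly from the reads (read-based). Build mm10 and annotation M21 are named in the accompanying deposited text; names and versions of the quantifiers were not given in the sources used here.

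Members were matched to gene identifiers by symbol. Rows that name no annotated gene, with 0.104% to 0.356% of all expected counts, were left out. Values are mean ± SD over 3 libraries. A gene was detected at 1 TPM or more in each library, and differences used log2(TPM + 1), a pseudocount of 1. Deviations were recomputed with edgeR 4.0.16 TMM and DESeq2 1.42.0 size factors on expected counts rounded to whole numbers. The deviation script was tested on simulated data. Pairs of libraries differed beyond counting noise, with a chi-square per degree of freedom of 39.3 to 97.2, so no library was a copy of another. Motifs, transcript junctions and shared 50-base words came from the annotation's transcripts.

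The members, 17 gene lists and 10 pairs were chosen with earlier results of these data known. Named were all members, detected family genes, the genes of each pair, the 4 highest and the first 4 undetected genes of each other list, and the 3 nearest genes of Tyrobp, Trem2 and Sirpa. Trem3, Treml1, Treml4, Cd300ld2, Cd300c, Cd300lg, Lilra5, the Sirpb1 genes, Siglec15, Mag, Cd200r2, Cd200r3, Malat1, Neat1 and the genes that overlap or resemble members were named after their values were seen. The symbols Treml6, Pira1, Pira6, Pira7, Pira12, Pira13, Lilrb4b and Cd200r1l did not match, so the family counts cover matched symbols only.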

Additional observations from a re-analysis of the deposited data

How the results depend on the processing

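The count of detected members was 9 under TPM limits of 0.5 and 5, after rescaling over nuclear protein-coding genes, in the read-based table and without any 1 library, and 10 where any TPM above 0 counted. The count of detected family genes was 26; it was 40 where any TPM above 0 counted, 22 to 32 under the other limits and tables, and 26 to 28 with 1 library left out. The median member level of 6.15 was 6.84 with FPKM, 4.84 in the read-based table and 6.09 to 6.22 with 1 library left out. Member levels in the read-based table were lower before rescaling, as for Sirpa, at 263 TPM there and 642 TPM in the gene table. Rescaled over nuclear protein-coding genes, Sirpa was at 2207 and 2166 TPM. Resolved neighbours numbered 6, with 4 in the read-based table and 4 to 7 with 1 library left out. All 10 pair ratios kept 1 sign in each library under other pseudocounts, FPKM and the read-based table. That they also did so with 1 library left out follows from the 3 libraries and is no further check. Of 70 recomputed ratios 52 stayed within 1 SD and 18 moved. Those with 1 library left out cannot move by 1 SD, so all 18 came from the other settings. Among them was Trem2 over Trem1, which went from 6.56 to 9.41 with a pseudocount of 0.1 and to 4.34 with 5. Leaving out replicate 2, an alternative chosen after seeing the data, was also applied to 14 member levels and retained-intron shares. For the same reason it could move none of them by 1 SD, so that rule could not test them. The means changed by between -9.01%, for the Trem2 level, and 33.6%, for the Sirpa retained-intron share.

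No paired analysis was possible because the libraries form 1 group. Without a control group no level can be read as a response to Lipid A. Trem1 rests on under 10 expected counts a library, so its level is known only to be far below 1 TPM. Lilrb4a and Pirb share sequence with other genes, and how such reads were divided was not tested; the protein-coding shares of both differ between the transcript tables.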
